A study of Mus musculus with 4 samples.

Results

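Regulatory T cells are CD4+ T cells that restrain other immune cells, and in tumors they hold back CD8+ T cells. Foxp3 is the transcription factor that defines them. They use much interleukin-2 through a receptor that contains CD25, display and activate latent TGF-beta, and in tissues respond to interleukin-33 and release amphiregulin, a growth factor for epithelial repair. The genes described here are 10 that mark these cells or carry out such functions: Foxp3, Ikzf2, Ikzf4, Il2ra, Lrrc32, Itgb8, Il1rl1, Izumo1r, Areg and Cd81. They were matched by symbol in the count tables, where each had 1 row among 32285 listed genes.

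The cells came from B16 melanoma tumors in Vsir fl/fl CD4-Cre mice (VISTA-KO) and their Vsir fl/fl littermates (WT), all on a C57BL/6 background. Vsir encodes VISTA, an inhibitory protein of immune cells. The Cd4 promoter is active in the thymus before CD4 and CD8 lineages part, so the Cre acts in both lineages. All mice of both genotypes received a peptide vaccine on day 3 and anti-CTLA-4 antibody on days 4 and 8, so no untreated cells were compared. CTLA-4 itself is abundant on regulatory T cells. Sorted TILs of 5 to 6 mice were pooled per genotype by the methods, while a legend gives 6 to 8 tumors. Each genotype is 1 droplet library with a matched TCR library, so the spread between mice is unknown and no difference was tested. All intervals below are exact 95% intervals that cover counting error only.

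After removal of cells with under 600 detected genes or at least 30% mitochondrial UMIs (unique molecular identifiers, the counted transcripts), 10224 WT and 9946 VISTA-KO cells remained. The libraries shared 145 cell barcodes, of which 0 carried the same clonotype in both. Cells with a Cd4 and a Foxp3 UMI were called regulatory, and there were 1528 of these in WT and 1270 in VISTA-KO. Cells with a Cd4 UMI and no Foxp3 UMI were called conventional CD4 (1768 and 3048 cells). Those lacking Cd4 but holding Cd8a or Cd8b1 UMIs were called CD8 (5549 and 4350 cells). These classes follow single UMIs, and a regulatory cell with no captured Foxp3 falls among the conventional cells. No UMI of Cd3d, Cd3e or Cd3g was required, so cells other than T cells may be among them. Such a UMI was present in 95.4% of WT and 98.3% of VISTA-KO conventional CD4 cells. Of the regulatory cells, 99.7% in WT and 99.8% in VISTA-KO held one. Levels are CPM, the UMIs of a gene in all cells of a class scaled by the total UMIs of those cells. Log2 ratios were taken after adding 5 CPM, which understates changes of low genes.

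The regulatory cells differed between the libraries in depth and in CD8 RNA, and both move with the comparisons of genotype. Their median was 8838 UMIs in WT and 5939 in VISTA-KO. A Cd8a or Cd8b1 UMI was present in 52.0% of the WT and 29.5% of the VISTA-KO regulatory cells. Those with such a UMI had medians of 13941 UMIs in WT and 9346 in VISTA-KO, against 5234 and 5151 without. Leaving out cells with CD8 RNA thus also leaves out deep cells. Cells of the CD8 class held a Foxp3 UMI in 6.25% and 4.07% of cases. Siglech-positive cells (at least 2 Siglech UMIs and no Cd3 UMI) are plasmacytoid dendritic cells by that marker and should lack Foxp3. There were only 127 of these in WT and 96 in VISTA-KO, and 2.36% and 2.08% of them held a Foxp3 UMI. These shares thus rest on few cells. The median depths of the Siglech-positive cells were 8309 and 8690 UMIs. A Cd8a or Cd8b1 UMI was present in 77.2% of these cells in WT and 72.9% in VISTA-KO. At least 2 TCR beta chains, a sign of doublets, were read in 7.85% and 11.3% of the regulatory cells.

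The cells called regulatory carried most of the other marks of the type that were read, but not all. Ctla4 was at 781 CPM in WT regulatory cells and 207 CPM in conventional CD4 cells, and at 1041 and 227 CPM in VISTA-KO. Tnfrsf4, encoding the costimulatory receptor OX40, was at 1043 against 279 CPM in WT and at 1219 against 228 CPM in VISTA-KO. Tnfrsf18, Tnfrsf9, Icos, Tigit, Capg and Ccr8 were also higher in regulatory than in conventional CD4 cells in both libraries. Icos, for example, was at 402 against 294.5 CPM in WT and at 656 against 434 CPM in VISTA-KO. Gpr83, another marker of these cells in many tissues, was at 0.765 and 1.56 CPM in the regulatory cells of WT and VISTA-KO and so was practically absent. It was at 0.0929 and 0.436 CPM in the conventional CD4 cells. Nrp1, a marker of thymus-derived regulatory T cells, stood at 55.8 CPM in the WT regulatory cells and at 71.9 CPM in the WT conventional ones, and at 78.4 and 66.5 CPM in VISTA-KO.

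Of cells with a Cd4 UMI, 46.4% (44.65 to 48.1%) were regulatory in the WT library, against 29.4% (28.1 to 30.8%) in the VISTA-KO library. This share moved with depth. After each cell was thinned to 2000 UMIs, it was 29.4% (27.2 to 31.7%) against 20.6% (19.1 to 22.2%), so the WT share stayed higher at equal depth. Dividing cells, those with at least 2 UMIs of Mki67 and Top2a together, made up 27.2% (24.9 to 29.5%) of WT regulatory cells, against 13.5% (11.7 to 15.6%) for VISTA-KO. With class read at 2000 UMIs but division still read from all UMIs, these shares were 15.7% (12.6 to 19.3%) and 8.89% (6.63 to 11.6%). The share of dividing cells was thus not compared at equal depth.

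Across classes, each of these genes was highest in the regulatory cells. Foxp3 was left out of these comparisons because it chose the classes. Of the other 9 genes, 8 were at least 2-fold higher in regulatory than in conventional CD4 cells in both libraries, where 1.23% of all 6190 tested genes were. In WT alone 8 of 9 passed, against 1.35% of all genes, and in VISTA-KO 9 of 9, against 2%. Against CD8 cells all 9 were at least 2-fold higher in both libraries, where 2.23% of all tested genes were. Il1rl1 is the exception against the WT conventional cells, and it lay under the 20 CPM required of a tested gene in WT. It was at 10.2 against 4.46 CPM, a ratio of 2.28 (1.65 to 3.20). Its log2 ratio was 0.68 after adding 5 CPM and 1.03 after adding 1 CPM, so the exception depends on the added value. These genes were chosen as marks of the cell type, so the count describes how well they separate it here.

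**Figure D1:**
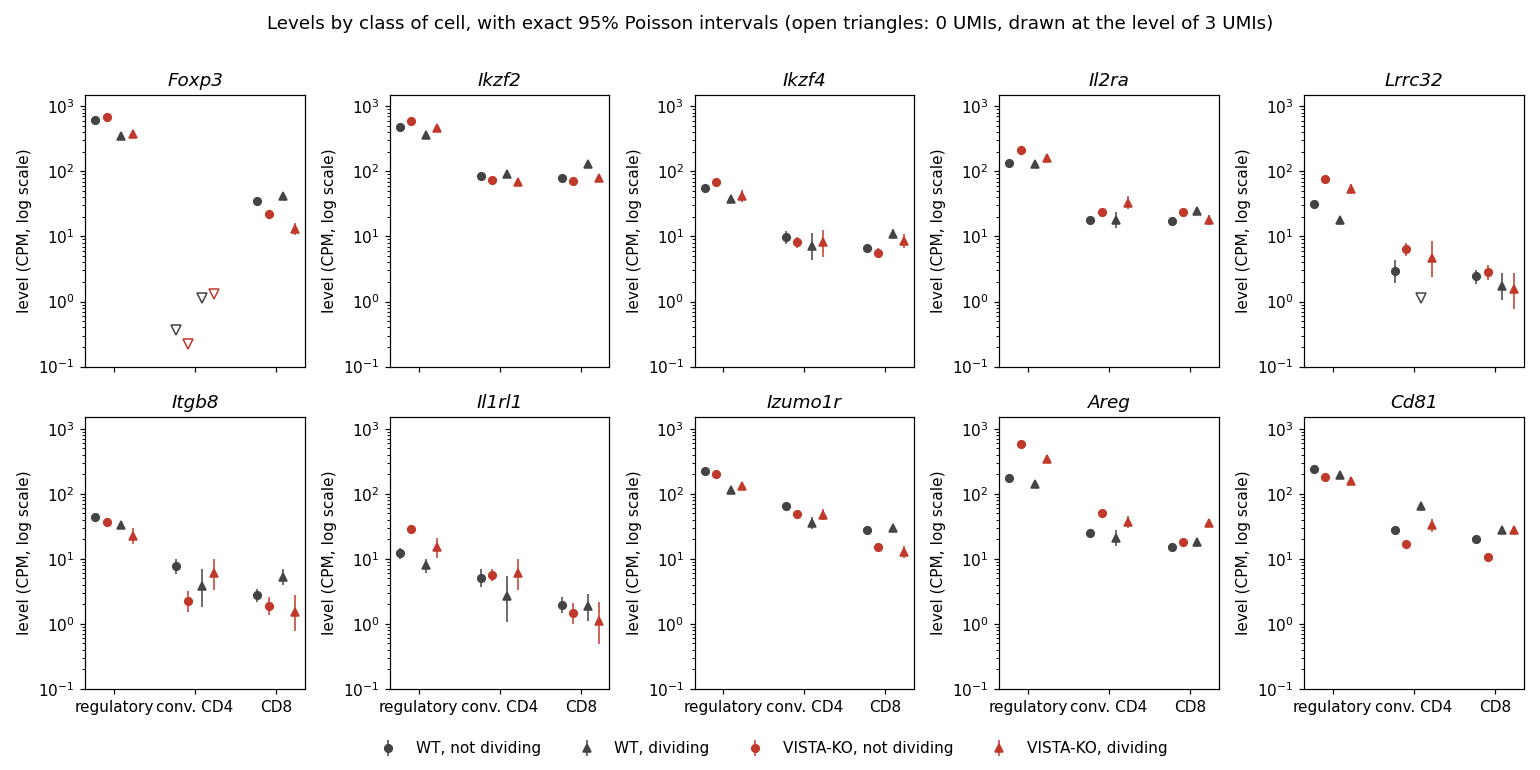
Level of each of the 10 genes in CPM (vertical log axis) in regulatory, conventional CD4 and CD8 cells, for WT (grey) and VISTA-KO (red), not dividing (circles) and dividing (triangles), with exact 95% Poisson intervals and groups at 0 UMIs drawn as open triangles at the level of 3 UMIs. For every gene the regulatory cells sit highest, and Areg, Lrrc32 and Il1rl1 are the genes whose red points stand farthest above the grey ones there.

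Foxp3 (chromosome X, 7579676 to 7595243, build GRCm38) was at 485 CPM (475 to 495) in WT regulatory cells and 610 CPM (595 to 626) in VISTA-KO. Since 1 Foxp3 UMI was required of each cell and the WT cells were deeper, this difference is a description only. In the regulatory cells with no Cd8a or Cd8b1 UMI, whose median depths were 5234 and 5151 UMIs, the levels were 747 and 748 CPM. The ratio was 1.00 (0.959 to 1.05) in these cells.

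Ikzf2 encodes Helios and Ikzf4 encodes Eos, zinc-finger factors of the Ikaros family that act with Foxp3. Ikzf2 (chromosome 1, 69531207 to 69687351) was at 432 CPM for WT and 571 CPM for VISTA-KO regulatory cells, a ratio of 1.32 (1.28 to 1.37). It was also read in CD8 cells, at 94.1 CPM for WT and 72.7 CPM for VISTA-KO, and in conventional CD4 cells at 86.6 and 73.4 CPM. Siglech-positive cells held 16.2 and 25.7 CPM, and CD8 cells with no Foxp3 UMI held 67.8 CPM for WT and 56.75 CPM for VISTA-KO. The source of the Ikzf2 RNA in these classes was not tested. Ikzf4 (chromosome 10, 128630839 to 128669671) was at 47.5 and 63.2 CPM in regulatory cells and at 6.41 to 9.11 CPM in the other classes. Over the 12 groups of cells (3 classes, dividing or not, 2 libraries) the Pearson r between the log2 levels of both genes was 0.987. Ikzf1 (Ikaros) and Ikzf3 (Aiolos), relatives found in most lymphocytes, were at 111 and 162 CPM in WT and at 98.4 and 145 CPM in VISTA-KO regulatory cells, with neither past the threshold.

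Il2ra (chromosome 2, 11642792 to 11693194) encodes CD25, the chain that gives the interleukin-2 receptor its high affinity. It was at 133 CPM (128 to 138) for WT and 203 CPM (194 to 212) for VISTA-KO regulatory cells, against 17.8 and 25.4 CPM in conventional CD4 cells and 19.4 and 22.2 CPM in CD8 cells. The ratio between the libraries in regulatory cells was 1.53 (1.44 to 1.62), a log2 ratio of 0.59. Without cells that held CD8 RNA it was 208 against 239 CPM, a log2 ratio of 0.19, so the difference did not pass the threshold there. It also fell short after thinning, at 0.43.

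Lrrc32 and Itgb8 serve the activation of TGF-beta: the former encodes GARP, which holds latent TGF-beta on the cell surface, and the latter an integrin chain that frees it. Lrrc32 (chromosome 7, 98489305 to 98501831) was at 24.9 CPM (22.6 to 27.3) for WT and 70.4 CPM (65.2 to 75.9) for VISTA-KO regulatory cells. This is a ratio of 2.83 (2.51 to 3.20), and a UMI of Lrrc32 was held by 4.99% and 12.5% of cells thinned to 2000 UMIs. Itgb8 (chromosome 12, 119162803 to 119238276) did not follow it and stood at 38.3 and 33.0 CPM, a ratio of 0.862 (0.752 to 0.985). In conventional CD4 and CD8 cells both were scarce, at no more than 6.69 CPM.

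Il1rl1 (chromosome 1, 40404864 to 40465418) encodes ST2, the interleukin-33 receptor that marks tissue-type regulatory T cells. In regulatory cells it was at 10.2 CPM (8.76 to 11.7) for WT and 25.7 CPM (22.6 to 29.1) for VISTA-KO. The ratio was 2.53 (2.08 to 3.07), on 186 and 247 UMIs. Group 2 innate lymphoid cells and mast cells also carry ST2. The list of 6 genes that mark them summed to 3.88 CPM for WT and 1.98 CPM for VISTA-KO regulatory cells, with 3 and 4 of the genes at 0.

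Areg (chromosome 5, 91139599 to 91148432) encodes amphiregulin, a ligand of the EGF receptor. It was at 159 CPM (154 to 165) for WT and 519 CPM (504 to 533) for VISTA-KO regulatory cells, a ratio of 3.25 (3.11 to 3.41). More cells held it and those cells held more of it. After thinning to 2000 UMIs, an Areg UMI was present in 14.3% (12.6 to 16.2%) of WT regulatory cells, against 28.5% (26.0 to 31.1%) for VISTA-KO, with a mean of 3.10 and 4.13 UMIs per positive cell. Cells with 5 or more Areg UMIs numbered 42 of 1483 (2.83%) in WT and 97 of 1219 (7.96%) in VISTA-KO. The other genes of its pathway were scarce, as only the sheddase gene Adam17, of 7 EGF receptor ligands and partners, reached 20 CPM. It stood at 44.9 and 47.6 CPM.

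The promoters of Areg and Il1rl1 are shown because these genes differed most between the libraries among those with a promoter sequence. Sequences are from RefSeq, build GRCm38.p6, 300 bases around an annotated start, on the plus strand, and 7 of the 10 genes had a window. Capitals mark matches on either strand to any of 7 motifs, whose letters are spelled out after the sequences. Il1rl1 has 2 windows, called first and second start here by their position. Both lie inside the gene, whose span begins at 40404864, and the start of that span had no window.
Areg, chr5:91139349-91139648: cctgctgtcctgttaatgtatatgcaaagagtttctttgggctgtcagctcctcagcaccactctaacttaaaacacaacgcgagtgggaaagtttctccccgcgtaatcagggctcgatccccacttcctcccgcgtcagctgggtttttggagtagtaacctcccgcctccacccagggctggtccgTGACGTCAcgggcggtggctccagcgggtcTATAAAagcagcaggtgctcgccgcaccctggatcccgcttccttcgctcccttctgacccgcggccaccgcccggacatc
Il1rl1, first start, chr1:40429320-40429619: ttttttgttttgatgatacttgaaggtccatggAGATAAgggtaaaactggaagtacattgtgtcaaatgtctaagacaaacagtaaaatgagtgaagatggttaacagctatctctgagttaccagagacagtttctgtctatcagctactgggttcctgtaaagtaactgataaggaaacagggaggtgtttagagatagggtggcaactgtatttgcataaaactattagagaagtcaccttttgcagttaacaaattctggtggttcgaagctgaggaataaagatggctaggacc
Il1rl1, second start, chr1:40439379-40439678: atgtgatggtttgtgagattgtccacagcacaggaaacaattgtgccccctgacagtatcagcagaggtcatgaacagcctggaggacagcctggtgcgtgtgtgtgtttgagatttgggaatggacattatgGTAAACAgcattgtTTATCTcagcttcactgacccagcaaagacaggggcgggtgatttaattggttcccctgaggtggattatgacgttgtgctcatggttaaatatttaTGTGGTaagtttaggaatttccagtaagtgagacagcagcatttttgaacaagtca
The Areg window holds the letters TGACGTCA of the CRE, the site of the cAMP-responsive factor CREB, which 1.79% of 32851 promoter windows of this length hold. It also holds a TATA box, searched as TATAAA and present in 13.6% of windows. The second Il1rl1 window holds a forkhead match, searched as TGTTTAC and present in 3.65% of windows. It holds a RUNX match as well, searched as TGTGGT and present in 16.8%. Both Il1rl1 windows hold a GATA match, searched as AGATAA and present in 11.2%. The AP-1 letters TGANTCA, in 7.81% of windows, occur in none of the windows of these genes. Nor do those searched for NR4A factors, AAAGGTCA, which 1.51% hold. A match gives letters only, and no binding was measured.

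**Figure D2:**
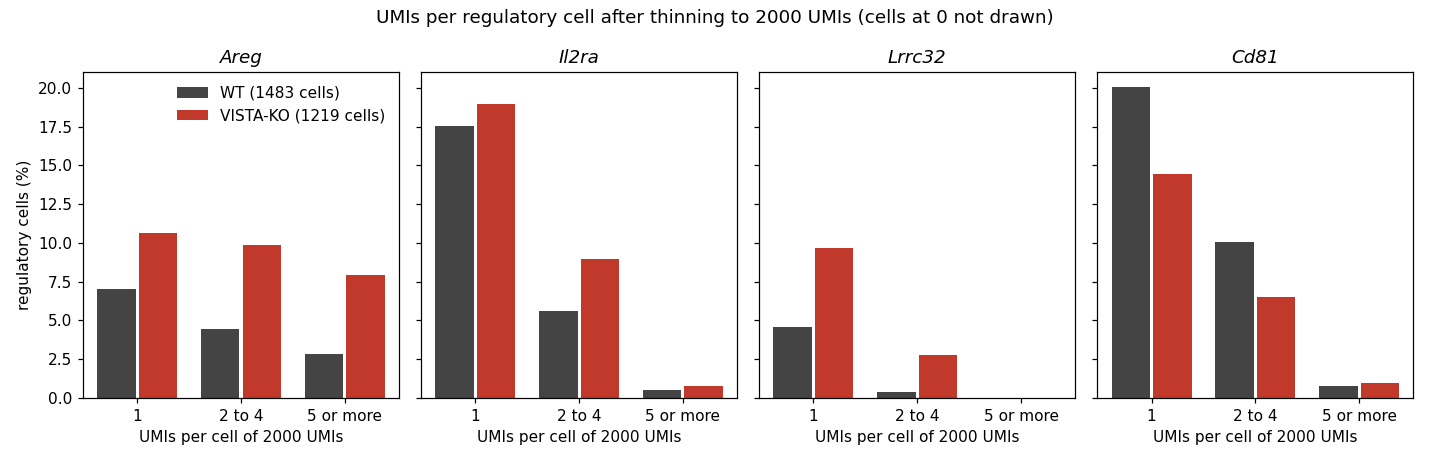
Share of regulatory cells (vertical axis, %) with 1, 2 to 4, or 5 or more UMIs of Areg, Il2ra, Lrrc32 and Cd81 after each cell was thinned to 2000 UMIs, in WT (grey, 1483 cells) and VISTA-KO (red, 1219 cells). Areg shows the largest gap at 5 or more UMIs, 2.83% against 7.96%, while Cd81 has fewer VISTA-KO cells with 1 UMI and with 2 to 4.

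Izumo1r (chromosome 9, 14885814 to 14903951) encodes folate receptor 4, a surface marker of regulatory T cells. It was at 171 CPM for WT and 183 CPM for VISTA-KO regulatory cells, a ratio of 1.07 (1.01 to 1.14), and the sign turned without cells that held CD8 RNA, at 249 against 218 CPM. In conventional CD4 cells it was at 57.4 and 48.9 CPM. Cd81 (chromosome 7, 143052750 to 143067930) encodes a tetraspanin, a membrane organizer also used by regulatory T cells. It was at 218 CPM (212 to 225) for WT and 176 CPM (168 to 185) for VISTA-KO regulatory cells, a ratio of 0.806 (0.761 to 0.854).

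Of the 10 genes, 4 were higher in VISTA-KO than in WT regulatory cells past a log2 ratio of 0.5 (Areg, Lrrc32, Il1rl1 and Il2ra), and 0 were lower. Of all 6281 tested genes, 2.83% were higher and 2.5% lower by this threshold. By log2 ratio from the highest, Areg was gene 9, Lrrc32 gene 21, Il1rl1 gene 34 and Il2ra gene 119 of these 6281. The median log2 ratio was 0.39 over the 10 genes and -0.0074 over all tested genes. Without the cells that held CD8 RNA (734 WT and 895 VISTA-KO cells left), Areg was at 242 and 640 CPM, Lrrc32 at 34.9 and 83.4 CPM, and Il1rl1 at 13.3 and 28.6 CPM. There 3 genes were higher, against 3.18% of all genes, and 1, Cd81 at 300 and 209 CPM, was lower, against 2.68%. The differences of Areg, Lrrc32 and Il1rl1 were thus present without CD8 RNA, where the median depths were alike. In cells that did not divide, the same 4 genes were higher, against 2.32% of all genes. In dividing cells Areg (140 and 338 CPM), Lrrc32 (17.6 and 54.5 CPM) and Il1rl1 (7.90 and 15.0 CPM) were, against 3.15%. Il1rl1 lay under the 20 CPM required of a tested gene there, and it fell to a log2 ratio of 0.48 without cells of 2 beta chains.

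**Figure D3:**
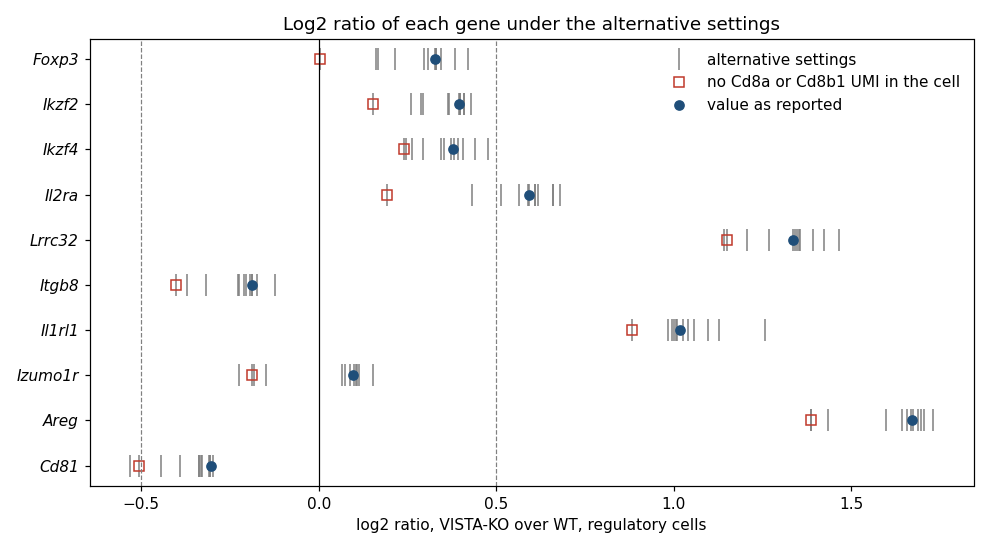
Log2 ratio of VISTA-KO over WT in regulatory cells (horizontal axis) for each gene, as reported (blue points), under each alternative setting (grey ticks) and in cells with no Cd8a or Cd8b1 UMI (red squares); dashed lines mark 0.5 in size. Areg, Lrrc32 and Il1rl1 stayed past 0.5 under every setting, whereas Il2ra fell to 0.19 without CD8 RNA, where Foxp3 lay at 0.00.

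In conventional CD4 cells, the genes were low and moved both ways. Areg was at 23.8 CPM for WT and 48.3 CPM for VISTA-KO, a ratio of 2.03 (1.76 to 2.35). Lrrc32, at 2.23 and 6.11 CPM, was the other gene higher past log2 0.5, and 1.5% of all genes were. Cd81, at 36.7 and 19.1 CPM, and Itgb8, at 6.69 and 2.81 CPM, were lower, as were 2.75% of all genes. Lrrc32 and Itgb8 are under 20 CPM here and rest on 24 to 98 UMIs a library, and Cd81 stood at a log2 ratio of -0.35 after thinning. Markers of other cells differed too in this class, though not all in the same direction. The 6 macrophage genes summed to 188.5 CPM for WT and 178.7 CPM for VISTA-KO, and the 3 B cell genes to 9.48 and 9.60 CPM. The 6 genes of group 2 innate lymphoid and mast cells summed to 6.04 and 15.3 CPM. The 4 melanoma genes summed to 204 and 15.7 CPM, the 5 plasmacytoid dendritic cell genes to 1355 and 728 CPM and the 4 NK cell genes to 512 and 247 CPM, and their part in the differences was not tested beyond leaving out cells with melanoma RNA, where Cd81 stood at -0.62.

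In CD8 cells 0 of the 10 genes were higher past log2 0.5, against 1.08% of all genes, and 2 were lower, against 0.69%. Foxp3 was at 37.1 CPM for WT and 19.7 CPM for VISTA-KO, and Izumo1r at 28.4 and 14.7 CPM. Part of the RNA in this class sat in the cells that also held Foxp3. In the 5202 WT and 4173 VISTA-KO cells of the class with no Foxp3 UMI, 2 genes were higher and 1, Izumo1r at 19.8 and 11.9 CPM, was lower. Of 6079 tested genes, 1.84% passed there in either direction. The genes counted as higher or lower there all lay under the 20 CPM required of a tested gene. Il2ra was at 9.37 and 16.3 CPM there, a ratio of 1.74 (1.504 to 2.02). Cd81, lower over the whole class (22.0 and 14.9 CPM), was at 8.95 and 11.6 CPM, a ratio of 1.29 (1.10 to 1.52). Areg was at 4.83 CPM (4.12 to 5.64) and 13.6 CPM (12.2 to 15.0) there, a ratio of 2.80 (2.33 to 3.40), so the higher level in VISTA-KO was seen in all 3 classes. Siglech-positive cells held 1.91 and 2.33 CPM of Areg, on 2 UMIs in each library. Areg outnumbered Lrrc32 by 36.8 to 1 (19.8 to 77.4) in these VISTA-KO CD8 cells, by 7.37 to 1 (6.80 to 7.997) in the regulatory and by 7.91 to 1 (6.40 to 9.86) in the conventional CD4 cells. In WT these values were 14.7 (8.02 to 30.1), 6.41 (5.81 to 7.09) and 10.7 (7.01 to 17.0). In each library the intervals of CD8 and regulatory cells did not overlap, while those of conventional and regulatory cells did. Over the whole CD8 class the melanoma genes summed to 10.2 and 193.5 CPM.

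**Figure D4:**
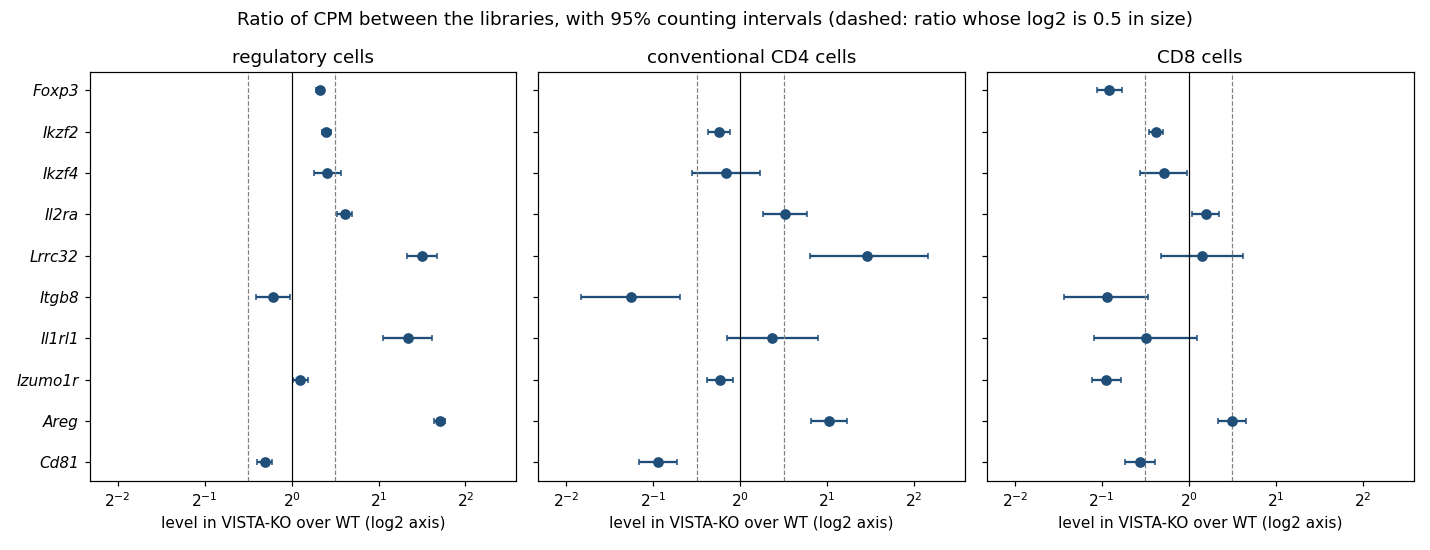
Ratio of the CPM of VISTA-KO to that of WT (horizontal log2 axis, with 95% counting intervals) for the 10 genes in regulatory, conventional CD4 and CD8 cells; dashed lines mark ratios whose log2 is 0.5 in size, and a gene without UMIs has no point. Areg lies right of 1 in all 3 classes and Cd81 left of 1 (though at 1.29 in CD8 cells with no Foxp3 UMI). Foxp3, Ikzf2, Ikzf4 and Izumo1r lie right of 1 in regulatory cells, where 1 Foxp3 UMI was required, and left of 1 in CD8 cells.

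All 10 genes stood lower in dividing regulatory cells than in those that did not divide, in both libraries, but for 4 of them the sign turned without CD8 RNA or at equal depth. Without cells that held CD8 RNA, the log2 ratio of dividing over other cells became 0.20 for Areg and 0.25 for Il2ra in WT and 0.28 for Cd81 in VISTA-KO. After thinning it became 0.20 for Lrrc32 and 0.070 for Il2ra in VISTA-KO. In WT 4 of the 10 genes were lower past log2 0.5 (3.72% of all genes were) and in VISTA-KO 6 (5.49%), with 3 lower in both (1.67%): Foxp3, Ikzf4 and Izumo1r. These counts include Foxp3, of which 1 UMI was required in each cell, so its part is a description only. Dividing cells were deeper, with medians of 18280 against 6968 UMIs in WT and 11943 against 5538 in VISTA-KO. Izumo1r went from 221 to 116 CPM in WT and from 199 to 133 CPM in VISTA-KO, and Ikzf4 from 56.1 to 38.0 and from 70.0 to 42.0 CPM. Il2ra was near level in WT (136 and 130 CPM) and lower in dividing VISTA-KO cells (217 and 159 CPM). Areg was at 177 and 140 CPM in WT and at 576 and 338 CPM in VISTA-KO. A CD8 UMI was present in 73.0% of dividing and 44.1% of other WT regulatory cells, and in 45.3% and 27.0% in VISTA-KO. At 2000 UMIs per cell 2 genes were lower past log2 0.5 in both libraries, and without the cells that held CD8 RNA 3 were. The share of all genes was not computed under those settings.

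Within the regulatory cells, Il1rl1 and Areg went together. In WT, Areg was at 334 CPM (307 to 362) in the 112 cells with an Il1rl1 UMI and at 141 CPM (136 to 147) in the 1416 without, and in VISTA-KO at 995 CPM (946 to 1047) in 182 cells and 431 CPM (416 to 445) in 1088. Il2ra did likewise, at 269 against 119 CPM in WT and 270 against 191 CPM in VISTA-KO, whereas Lrrc32 was not higher in Il1rl1-positive cells, at 18.1 against 25.6 CPM and 54.0 against 73.4 CPM. Cells with Itgae, which encodes the tissue-retention integrin CD103, held 224 CPM of Areg in WT against 109 CPM in cells without, and 581 against 474 CPM in VISTA-KO. In the Il1rl1-positive cells without Itgae, Areg was still at 243 CPM in WT (38 cells) and 1124 CPM in VISTA-KO (80 cells). The positive cells were the deeper ones in each case, with medians of 11566 against 8764 UMIs for Il1rl1 in WT.

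Pairs of genes in the same cell were counted in regulatory cells that did not divide, thinned to 2000 UMIs (1073 WT and 1050 VISTA-KO cells). Il1rl1 was seen in only 28 such WT cells and was not paired. Itgb8 and Cd81 met in 45 WT and 24 VISTA-KO cells, 1.59 and 1.64 times the product of their shares. Il2ra and Areg met 1.503 and 1.23 times the product, and Izumo1r and Areg 0.719 and 0.953 times. The cells held a median of 2 of the 9 genes besides Foxp3 in each library, and 0 of them in 13.5% of WT and 8.19% of VISTA-KO cells. Over the 12 groups, the gene most like each by Pearson r of log2 levels was Klrg1 for Foxp3 (0.954), Neb for Ikzf2 (0.989), Swap70 for Ikzf4 (0.995), Ctla4 for Il2ra (0.978), Pgghg for Lrrc32 (0.977), Igsf23 for Itgb8 (0.981), Rbm38 for Il1rl1 (0.982), Slc15a3 for Izumo1r (0.990), Lrrc32 for Areg (0.976) and Phlpp1 for Cd81 (0.965). The groups share libraries and classes, so these values describe a pattern only.

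Other genes of the same pathways were read from lists chosen with earlier results of these data known, so their counts are descriptions only. The threshold was again log2 0.5, which 2.83% (higher) and 2.5% (lower) of all genes passed. Of 24 tested regulatory effector and checkpoint genes, 6 were higher and 1 lower in VISTA-KO regulatory cells, with a median log2 ratio of 0.31, and 7 were higher in cells that did not divide but 2 in dividing cells. Ccr4, a chemokine receptor, was at 19.6 CPM for WT and 62.3 CPM for VISTA-KO, and Gzmb, encoding the protease granzyme B, at 606 and 1088 CPM. Lag3, an inhibitory receptor, was lower (189 and 129 CPM), and Tigit, another, stood at 526 and 436 CPM.

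Of 13 tested genes of the interleukin-2 receptor and STAT5 list, 5 were higher and 0 lower, with a median of 0.26, and 4 and 3 were higher in cells that did not divide and in dividing cells. Pim1, a kinase induced by STAT5, was at 414 and 897 CPM, and Socs2, a feedback inhibitor of cytokine signals, at 27.1 and 54.2 CPM. The lowest were Bcl2 (38.5 and 36.4 CPM), a survival factor, and Jak1 (379 and 374 CPM), a kinase of the receptor. Of 11 tested TGF-beta genes, 4 were higher and 0 lower, with a median of 0.35, but 2 of 11 were higher in cells that did not divide and 1 of 10 in dividing cells. They were Tgif1 (67.2 and 182 CPM) and Skil (92.9 and 139 CPM), repressors of the pathway, Smad3 (12.2 and 20.8 CPM), its signal carrier, and Tgfbr1 (16.2 and 26.6 CPM), a receptor chain. Tgfbr2 (109 and 99.2 CPM) and Itgav (309 and 286 CPM), the partner chain of Itgb8, were the lowest.

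Of 21 tested transcription factors, 3 were higher and 1 lower, with a median of 0.27. Nr4a1 was at 193 and 795 CPM and Nr4a3 at 36.3 and 105 CPM, nuclear receptors induced by TCR signals. Irf4, a factor of effector regulatory T cells, was at 28.4 and 42.7 CPM. Id2, an inhibitor of E proteins, was lower (506 and 356 CPM), and Prdm1, encoding Blimp-1, stood at 95.6 and 77.3 CPM. Of 6 tested genes of the interleukin-33 pathway, 1 was higher, with a median of 0.15: Il10, an inhibitory cytokine, at 14.7 and 26.1 CPM. Gata3, the partner factor of ST2-positive cells, was at 85.8 and 109 CPM, and Myd88 and Irak4, the adaptor and kinase of the receptor, at 43.1 and 41.6 CPM and at 22.2 and 21.6 CPM. Of 8 tested tetraspanins and Cd81 partners, Cd63 was higher (7.54 and 34.6 CPM) and Ifitm1 lower (36.6 and 20.7 CPM), with 0 genes past the threshold in cells that did not divide. Cd37 and Cd9 stood at 435 and 601 CPM and at 34.0 and 30.4 CPM.

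Markers of other cells also differed in the regulatory class. The 4 melanoma genes summed to 5.57 CPM for WT and 190 CPM for VISTA-KO, with Pmel at 0.820 and 83.1 CPM, and Cd63 is itself abundant in melanocytes. In VISTA-KO 1784 of their 1823 UMIs lay in 2 cells, both dividing, and without dividing cells the sums were 5.75 and 4.25 CPM. The 6 macrophage genes summed to 137 and 73.8 CPM, 4 NK cell genes to 133 and 64.7 CPM (mostly Tyrobp), 5 plasmacytoid dendritic cell genes to 518 and 472 CPM, and 3 B cell genes to 13.7 and 27.7 CPM. Bst2, an interferon-induced gene of many cell types, made up 272 and 299 CPM of the dendritic cell sum. The part of such RNA in the differences of the 10 genes was not tested beyond leaving out the cells with melanoma RNA, which kept Areg, Lrrc32 and Il1rl1 past the threshold.

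Some conventional CD4 cells shared a TCR clonotype with a regulatory cell of their library: 87 of 1150 with a clonotype in WT and 158 of 2321 in VISTA-KO. The sharing cells came from 28 clonotypes in WT and 32 in VISTA-KO, and the counting intervals do not cover the spread between clonotypes. A shared clonotype has at least 2 cells by definition, while the others include clonotypes of 1 cell. Sharing thus cannot be told apart from clonotype size here. After adding 5 CPM, 0.23% of all tested genes were at least 2-fold higher in the sharing cells than in the other cells with a clonotype, in both libraries. The counts below follow the same rule. Of the 9 genes, Itgb8 alone passed in both libraries. It was at 34.9 CPM (19.1 to 58.5) against 4.95 CPM in WT and at 11.2 CPM (4.85 to 22.2) against 2.41 CPM in VISTA-KO, on 14 and 8 UMIs. In WT 4 genes were higher (3.2% of tested genes were) and 1, Il1rl1 at 0 against 6.13 CPM, was lower (1.86% were). The interval of that Il1rl1 ratio, 0 to 1.59, included no difference. In VISTA-KO 2 were higher (1.25%), and Il1rl1 was at 2.81 against 6.66 CPM. These counts include Lrrc32 and Il1rl1 in WT and Itgb8 in VISTA-KO, which lay under the 20 CPM required of a tested gene. Izumo1r was at 170 CPM (141 to 203) against 45.7 CPM in VISTA-KO and at 77.2 against 67.5 CPM in WT, and Lrrc32 at 17.4 against 1.19 CPM in WT and 11.2 against 4.73 CPM in VISTA-KO. With nothing added, the ratio of Lrrc32 was 14.7 (WT) and 2.38 (VISTA-KO), so its failure to pass in both libraries depends on the added value. The counting interval of the VISTA-KO ratio, 0.972 to 5.06, included no difference. Without the largest clonotype of each class, the log2 ratio of Izumo1r in VISTA-KO went from 1.79 to 1.00. RNA of other cells differed too. In WT the plasmacytoid dendritic cell genes summed to 1407 CPM in the sharing cells against 565 CPM, and the NK cell genes to 426 against 159 CPM. In VISTA-KO the melanoma genes summed to 119 against 2.03 CPM. Their part was not tested. Foxp3 was 0 in all of them by the rule, and a missed Foxp3 transcript cannot be told apart here from its absence.

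Vsir (chromosome 10, 60346851 to 60430294) was read at 112 CPM for WT and 117 CPM for VISTA-KO regulatory cells, at 109 and 117 CPM in conventional CD4 cells and at 112 and 111 CPM in CD8 cells. These reads come from the 5′ end of the transcript, and the floxed part is not given in the sources used here, so the level does not check the deletion. The genotypes rest on the labels alone.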

How the data were processed

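Single-cell gene expression and TCR libraries of sorted B16 TILs were analyzed. The authors aligned reads with Cell Ranger 5.0.0 to GRCm38 references and deposited UMI counts for every gene in each barcode, not normalized, and counts per TCR contig. The labels describe a 3′ kit and the methods a 5′ kit with TCR profiling, which the contigs require. The libraries held 72098984 (WT) and 59916814 (VISTA-KO) UMIs. The authors' clusters were not used.

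Here cells were filtered as in the methods (600 genes, 30% mitochondrial UMIs) and classed by UMIs of Foxp3, Cd4, Cd8a and Cd8b1. UMIs were summed per library and class and scaled to CPM. Genes with at least 20 CPM in 1 compared group were tested for size only, by log2 ratios of CPM plus 5 past 0.5 in size (2-fold between classes). With 1 library per genotype no p-value was computed. Intervals are exact 95% Poisson, conditional binomial (ratios) or Clopper-Pearson and cover counting error only. For shares, cells were thinned to 2000 UMIs, leaving out 45 WT and 51 VISTA-KO regulatory cells with fewer. Dividing cells were called from all UMIs throughout. Clonotypes join the most abundant alpha and beta contig of a cell, each by V gene and junction sequence. Doublets were kept, and cells with 2 or more beta chains were left out in an alternative. All 10 genes are reported. For each pathway list the 2 highest and 2 lowest tested genes are given, and others that passed are given for some lists only. For each of the 10 genes, the gene with the highest r over 12 groups is given (the rule gave 3). The genes and lists were chosen with earlier results of these data known. Other settings tried are in the closing section. Ratios were tested on simulated data. Python 3.11.15, numpy 2.4.6, scipy 1.17.1, pandas 2.3.3 and matplotlib 3.10.9 were used.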

Additional observations from a re-analysis of the deposited data

Results flagged for a closer look

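Some genes differed between the libraries in opposite directions in 2 classes, with both counting intervals excluding a ratio of 1. The difference between classes was not tested, since there is 1 library per genotype. VISTA-KO over WT, the log2 ratio was 0.33 for Foxp3 in regulatory cells and -0.77 in CD8 cells. The values of Foxp3 are a description only, since 1 UMI of it was required of each regulatory cell and the WT cells were deeper. In the CD8 class, 6.25% of WT and 4.07% of VISTA-KO cells held a Foxp3 UMI. For Ikzf2 it was 0.40 in regulatory, -0.22 in conventional CD4 and -0.35 in CD8 cells. For Ikzf4 it was 0.38 in regulatory and -0.17 in CD8 cells. For Izumo1r it was 0.097 in regulatory, -0.21 in conventional CD4 and -0.76 in CD8 cells. In regulatory cells with no CD8 RNA, Foxp3 and Izumo1r were at 0.00 and -0.19, and in CD8 cells with no Foxp3 UMI, Ikzf4 was at 0.04.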

How the results depend on the processing

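Under 14 alternatives, 3 of them chosen after seeing the data (CD8 cells without Foxp3, cells without melanoma RNA, and Foxp3-positive cells with neither Cd4 nor Cd8 added), 1176 of 1517 values of the genes moved by less than their counting interval, 341 moved by more and 0 of the values past a threshold changed sign. In regulatory cells the log2 ratio of VISTA-KO over WT ranged from 1.39 to 1.73 for Areg, 1.14 to 1.47 for Lrrc32, 0.88 to 1.26 for Il1rl1, 0.19 to 0.68 for Il2ra, -0.22 to 0.15 for Izumo1r and -0.53 to -0.30 for Cd81. The counts of genes between regulatory and the other classes, and between the libraries in regulatory cells, stayed within 1.5 times the value given under every alternative.

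Other counts moved. After thinning, 2 genes rather than 4 passed in conventional CD4 cells, against 4.14% of all genes. In cells with a shared clonotype 0 rather than 1 passed. With a pseudocount of 1 CPM, 4 rather than 2 passed in CD8 cells, against 2.10% of all genes, and 2 rather than 1 with a shared clonotype. The last count was also 2 without the largest clonotypes, 0 without CD8 RNA and 0 with Foxp3-positive cells added. With at least 2 Foxp3 UMIs required, 1 gene rather than 3 was lower in dividing cells of both libraries. For dividing cells and shared clonotypes, the share of all genes was not computed under the alternatives. The regulatory share of Cd4-positive cells in WT was 29.4% after thinning, 43.4% with 2 Foxp3 UMIs, 38.2% without CD8 RNA, 41.1% without dividing cells and 51.5% with Foxp3-positive cells added. In VISTA-KO it was 20.6%, 25.8%, 27.1%, 28.0% and 34.1%, and 28.0% without cells of 2 beta chains, so it was lower than in WT under each. The cause of these moves was not tested. No paired analysis was possible because each genotype has 1 pooled library and no replicate numbers.

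Depth limits the low genes. In conventional CD4 and CD8 cells Il1rl1, Itgb8 and Lrrc32 rest on 24 to 129 UMIs a library, and in cells that share a clonotype on 0 to 14, so that their ratios there have wide intervals.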

Other observations

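Cells with Foxp3 but no Cd4 UMI were in no regulatory class. Of cells with neither Cd4, Cd8a nor Cd8b1, 25.2% in WT (348 cells) and 24.2% in VISTA-KO (309 cells) held a Foxp3 UMI. These carried the other genes at levels above those of the whole regulatory class, which includes cells with CD8 RNA. Areg was at 393 (362 to 426) and 747 CPM (703 to 794), Lrrc32 at 50.4 and 81.1 CPM, Il1rl1 at 21.6 (14.9 to 30.3) and 60.3 CPM (48.1 to 74.7), Il2ra at 219 and 310 CPM, and Cd81 at 318 and 199 CPM. Their median depths were 3806 and 3765 UMIs. Foxp3 was at 901 and 853 CPM there, but 1 UMI of it was required in each cell. Against regulatory cells with no Cd8a or Cd8b1 UMI, several genes were not higher in these cells. In VISTA-KO these were Lrrc32 (83.4 CPM in those regulatory cells), Cd81 (209 CPM), Itgb8 and Izumo1r. In WT only Izumo1r was not higher, and the remaining genes were higher in value in each library. Some of these gaps lay within counting error. Itgb8 in WT was at 55.7 CPM (44.5 to 68.8) against 54.0 CPM, and Il2ra at 219 CPM (196 to 243) against 208 CPM. Cd81 in WT was at 318 CPM (290 to 347) against 299.5 CPM, and Ikzf4 in VISTA-KO at 80.4 CPM (66.2 to 96.75) against 75.3 CPM.

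Cells with Cd8 and Foxp3 but no Cd4 UMIs numbered 347 in WT and 177 in VISTA-KO. They held Ikzf2 at 321 and 417 CPM, Areg at 112 and 219 CPM and Lrrc32 at 18.7 and 48.5 CPM, where cells of the class without Foxp3 held Lrrc32 at 0.328 and 0.368 CPM. Whether these are single cells was not tested.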
